A study of Mus musculus with 9 samples.

Results

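Aatk, Zfr2, Sertm1 and Vit are 4 genes of the 12550 in the deposited table, and their values were below the control in both knockdown arms on every day sampled. They were chosen by that property: each had a lower value with a hairpin against Hnrnpk and with a hairpin against lincRNA-p21 than with the control hairpin on days 6, 9 and 12. The differences from control that follow are therefore a description and carry no test. The series followed mouse embryonic fibroblasts (MEFs) of strain C57Bl/6cJ, turned towards induced pluripotent stem cells by plasmids that express Oct4, Sox2, Klf4 and c-Myc and grown in embryonic stem cell medium with LIF. All 3 arms carried these factors and a pretroSuper construct with 1 hairpin each: against luciferase (shluc, the control, a target the cells lack), against Hnrnpk (shhnrnpk) or against Trp53cor1, the gene of lincRNA-p21 (shlincp21). Each arm had 1 library of total RNA on each of days 6, 9 and 12, so there were 9 libraries, and each is called merged replicates in the labels. With 1 hairpin construct per target in the labels, effects of a hairpin other than loss of its target cannot be told apart from that loss. The values come from whole cultures, in which fewer cells of a type and less RNA per cell cannot be told apart.

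The 4 genes share no known pathway. Aatk encodes the apoptosis-associated tyrosine kinase, also called LMTK1, a membrane-anchored kinase that is abundant in brain, is phosphorylated by CDK5 with its activator p35, and acts on Rab11 recycling endosomes and neurite growth. Zfr2 encodes a zinc finger protein with a DZF domain, a paralog of the double-stranded RNA-binding protein Zfr. Sertm1 encodes a small serine-rich protein with a transmembrane domain, of which little is known. Vit encodes vitrin, a secreted extracellular matrix protein with an LCCL domain and von Willebrand factor A domains, related to cochlin. Of the hairpin targets, hnRNP K is an RNA- and DNA-binding protein that prefers runs of C, and lincRNA-p21 is a p53-induced long non-coding RNA known as a partner of hnRNP K.

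The genes lie on 4 chromosomes (GENCODE M21, on GRCm38, which is the mm10 build named in the submitters' processing notes), and all are annotated as protein-coding. Aatk (ENSMUSG00000025375) is at chr11:120007313-120047167 on the minus strand, Zfr2 (ENSMUSG00000034949) at chr10:81233155-81252123 on the plus strand, Sertm1 (ENSMUSG00000056306) at chr3:54897068-54915887 on the minus strand, and Vit (ENSMUSG00000024076) at chr17:78508064-78627408 on the plus strand. Vit is on the same chromosome as Trp53cor1. The microRNA gene Mir338 lies inside Aatk on the same strand and Mir3065 on the opposite strand, both outside the exons of Aatk, and neither has a row in the table. No other gene with a row in the table overlaps any of the 4.

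The promoters are shown because the genes were low together and because the title of the series names CpG methylation at promoters and hnRNP K binds runs of C. RefSeq entries (GRCm38.p6) matched 3 of the 4 genes, Aatk, Zfr2 and Sertm1. The 250 bases before the start of each are printed from 5′ to 3′ on the strand of the gene, with each CpG in capitals, at chr11:120047153-120047402 (minus strand) for Aatk, chr10:81232913-81233162 (plus strand) for Zfr2 and chr3:54915888-54916137 (minus strand) for Sertm1. Aatk has 4 entries, and the one whose start is nearest to that of GENCODE is shown.

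Aatk: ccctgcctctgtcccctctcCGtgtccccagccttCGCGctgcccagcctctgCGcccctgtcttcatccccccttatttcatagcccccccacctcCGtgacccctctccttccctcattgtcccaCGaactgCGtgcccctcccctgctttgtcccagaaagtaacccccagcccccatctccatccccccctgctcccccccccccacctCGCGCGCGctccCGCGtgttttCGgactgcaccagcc
Zfr2: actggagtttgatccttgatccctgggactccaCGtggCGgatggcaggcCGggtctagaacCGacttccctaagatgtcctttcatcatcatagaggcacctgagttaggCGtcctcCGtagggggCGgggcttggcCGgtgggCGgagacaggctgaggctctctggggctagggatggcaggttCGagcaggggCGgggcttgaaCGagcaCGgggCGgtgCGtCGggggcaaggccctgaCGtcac
Sertm1: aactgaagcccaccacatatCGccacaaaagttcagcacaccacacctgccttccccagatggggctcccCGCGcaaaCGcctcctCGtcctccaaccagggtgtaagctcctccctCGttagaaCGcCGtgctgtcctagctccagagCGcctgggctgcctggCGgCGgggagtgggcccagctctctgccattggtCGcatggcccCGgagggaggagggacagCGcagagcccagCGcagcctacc

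These windows held 14 CpGs in Aatk, 17 in Zfr2 and 15 in Sertm1, where the median over 32851 RefSeq promoter entries of the same length was 6 and the upper quartile 16. All 3 were rich in G and C (67.6%, 64.4% and 65.6%, against a median of 52.4%), but not on the same strand. The Aatk window was 52.8% C on the strand of the gene, the Sertm1 window 37.6% and the Zfr2 window 25.2%, against a median of 25.6%. The runs of C that fill the Aatk window are visible in its sequence. No motif that was searched on both strands occurred in all 3 windows. The C-rich word CCCTCCC matched 1 time in Aatk, and 19.7% of all entries hold it. The E-box word CACGTG matched 1 time in Zfr2 (6.02% of entries), and the GC box word GGGCGG matched 4 times in Zfr2 (32.7% of entries). The CCAAT box matched 1 time in Sertm1, on the other strand (33.8% of entries). The word TATAAA was in none of the 3 windows (12.4% of entries). No matches of different words overlapped.

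Aatk, the kinase gene, had the largest mean difference of the 4 under shhnrnpk, while under shlincp21 that of Zfr2 was larger. Its normalized signal was 145, 467 and 628 on days 6, 9 and 12 under shluc. In the shhnrnpk arm it was 56, 177.5 and 183, and under shlincp21 54.5, 211.5 and 285. Each knockdown library was below the control library of its day, and the Aatk values of both knockdown arms on day 12 were below the control value of day 9. The latter held for all 4 genes, in 8 of 8 knockdown values of day 12. On the log2 scale, with 10 added to each value first, the difference of Aatk from control averaged -1.43 ± 0.26 (SD over days, n = 3 days) under shhnrnpk and -1.16 ± 0.09 (SD over days, n = 3 days) under shlincp21. As a share of control, Aatk stood between 29.1% and 38.6% under shhnrnpk and between 37.6% and 45.4% under shlincp21.

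Zfr2, the RNA-binding protein gene, was at 130, 265.5 and 465 under shluc. Its signal was 77, 96 and 198.5 under shhnrnpk and 41, 120 and 186 under shlincp21. On day 6 the shlincp21 library had the lowest value, at 31.5% of control, and the shhnrnpk library stood at 59.2%. On day 9 the shhnrnpk library was lowest, at 36.2% of control against 45.2%. On day 12 they were close, at 42.7% under shhnrnpk and 40% under shlincp21. The mean log2 difference of Zfr2 was -1.08 ± 0.36 (SD over days, n = 3 days) under shhnrnpk and -1.27 ± 0.19 (SD over days, n = 3 days) under shlincp21.

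Sertm1, the small membrane protein gene, was at 91, 365 and 320 under shluc. The shhnrnpk arm had 45.5, 137 and 102 and the shlincp21 arm 44, 123 and 168. The knockdown arms were close on days 6 and 9 and parted on day 12, at 31.9% of control under shhnrnpk and 52.5% under shlincp21. The mean log2 difference of Sertm1 was -1.26 ± 0.36 (SD over days, n = 3 days) under shhnrnpk and -1.10 ± 0.35 (SD over days, n = 3 days) under shlincp21.

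Vit, the matrix protein gene, had the smallest mean difference of the 4 in either arm. Its signal was 109, 285 and 301.5 under shluc, 58, 152 and 210.5 under shhnrnpk, and 53.5, 153.5 and 146 under shlincp21. The knockdown values of Vit were nearly the same on days 6 and 9, and on day 12 the shhnrnpk library reached 69.8% of control while the shlincp21 library stayed at 48.4%. The mean log2 difference of Vit was -0.72 ± 0.20 (SD over days, n = 3 days) under shhnrnpk and -0.92 ± 0.07 (SD over days, n = 3 days) under shlincp21.

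**Figure D1:**
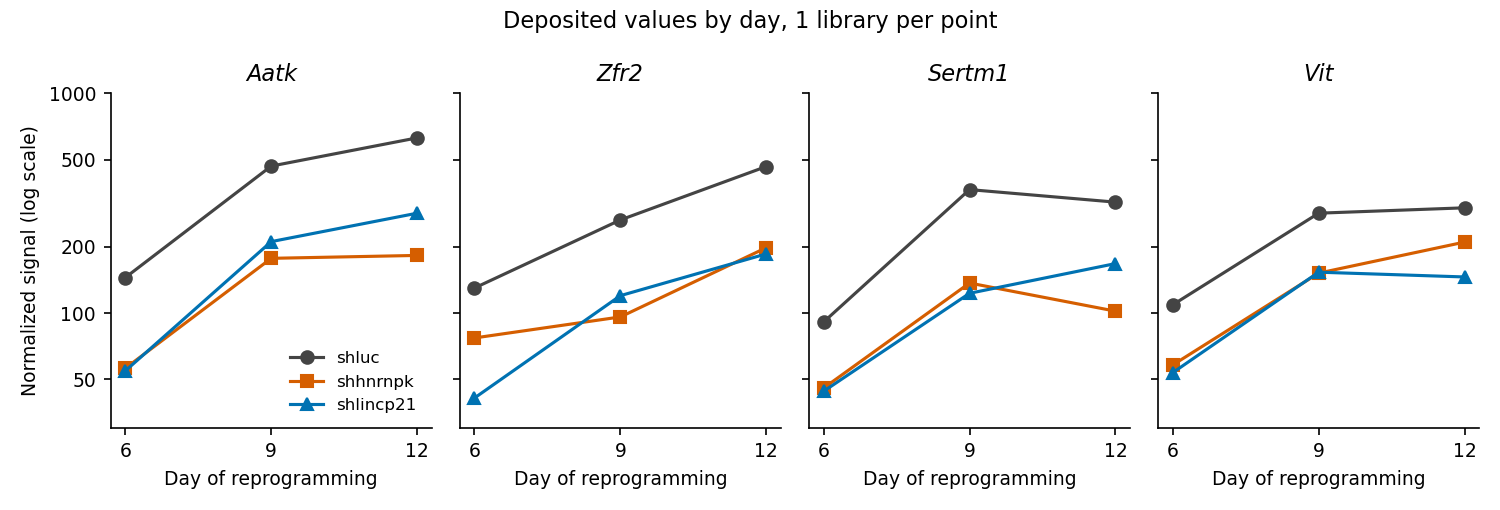
Normalized signal (log scale) of Aatk, Zfr2, Sertm1 and Vit on days 6, 9 and 12, with 1 point per library and 1 line per arm (shluc, the control; shhnrnpk; shlincp21). In each panel the control line lies above both knockdown lines on every day, and all lines rise from day 6 to day 9.

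The knockdown arms were not in a fixed order. The log2 difference of the shlincp21 arm minus the shhnrnpk arm on days 6, 9 and 12 was -0.03, 0.24 and 0.61 for Aatk, and -0.77, 0.29 and -0.09 for Zfr2. For Sertm1 it was -0.04, -0.14 and 0.67, and for Vit -0.10, 0.01 and -0.50. None of the 4 genes kept the same sign on all 3 days. These values are given with no test, because both arms' values were used to choose the genes.

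**Figure D2:**
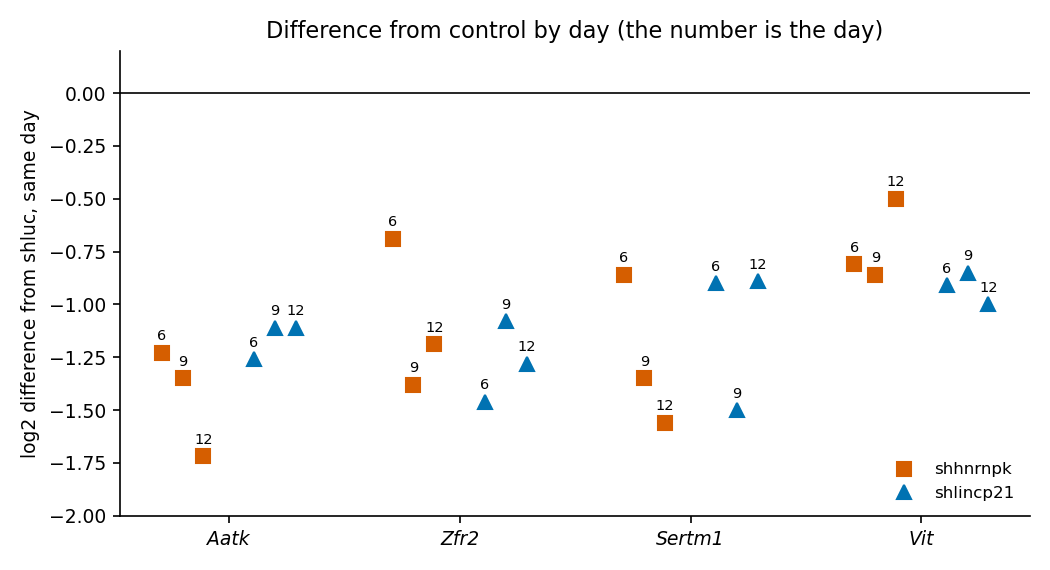
Log2 difference from the control library of the same day (vertical axis, 10 added to each value) for each gene in the shhnrnpk arm (squares) and the shlincp21 arm (triangles), with the day printed at each point. All 24 points lie below 0, as the choice of genes requires, from -1.72 for Aatk to -0.50 for Vit, both in the shhnrnpk arm on day 12.

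Many other genes meet the same property. In the table, 12541 genes had a mean of at least 20, and 1399 of them (11.2%) were below control in both arms on every day, while 1230 (9.81%) were above it. Ranked by the smallest of its 6 differences, Aatk came first of the 1399 (-1.11), Sertm1 was at rank 2 (-0.86), Zfr2 at rank 10 (-0.69) and Vit at rank 37 (-0.50). Between Sertm1 and Zfr2 stood, among others, the prolyl hydroxylase gene Egln3 at rank 3 (-0.78) and Trp53cor1 itself at rank 4 (-0.75). The gene ranked just below Zfr2 was the clock gene Per3 (-0.68), and Adrb3 (-0.50) and Tbx21 (-0.49) stood on either side of Vit. At the edge of the property were Ppm1l (-0.00065) and Iars2 (-0.00028) inside it, and 2 entries named only by clone at 0 outside it.

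The hairpin targets were read as a check of the arms. Hnrnpk was at 31243, 26944 and 23376 on days 6, 9 and 12 under shluc, at 11349, 17016 and 12793 in its own arm, and at 31142, 29972 and 27873 under shlincp21. Trp53cor1 was at 286.5, 237 and 250 under shluc, at 90.5, 122 and 97 in its own arm, and at 131, 137 and 119.5 under shhnrnpk, so its level was below control in both knockdown arms, as for the 4 genes. All 12 fibroblast markers were in the table, with summed signals of 193492 to 204676 in the control, 125332 to 234442 under shhnrnpk and 184172 to 260050 in the shlincp21 libraries. Those of the 10 pluripotency markers were 533.5 to 1738, 745.5 to 11628 and 551.5 to 7540. Under shhnrnpk 7 of the 10 were higher (limma with Benjamini-Hochberg adjustment at 0.05), where 5.58% of all genes were. None of the 10 passed under shlincp21, and none of the fibroblast markers in either arm. Such calls set an arm difference against its variation between days, not between cultures. Aatk is best known from brain, and 8 of 12 neuronal markers were in the table, summing to 14817.5 to 32041 in the control, 14776.5 to 24456.5 under shhnrnpk and 15409.5 to 47834.5 in the shlincp21 libraries. Of these 8, 3 were higher and none lower under shhnrnpk, and 1 was higher and none lower under shlincp21. That 1 gene was the only one called under shlincp21 among all 12541 (0.00797%), and no gene was called there with a pseudocount of 50 or without any 1 of 6 libraries (shluc day 9 or 12, shhnrnpk day 9, shlincp21 day 6, 9 or 12). Of 5 chondrocyte markers 3 were in the table, and none of the 3 passed in either arm. All 6 epithelial markers were in the table, and 5 were higher under shhnrnpk while none passed under shlincp21. Of 5 macrophage and 4 endothelial markers 1 each was in the table (Cd68 and Tek) and did not pass. None of these markers in the table was at 0 in every library, and their part in the levels of the 4 genes was not tested.

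The rule of choice did not use the change between days, which was tested. Earlier results of these data were known when the genes were chosen, so the choice may not be independent of this change. Each gene was fitted by limma over all 9 libraries, with arm and day as terms, and p-values were adjusted by Benjamini-Hochberg over 12541 genes. With 1 library per arm and day, the test measures how far a change between days varied between the arms, not the variation between cultures. Being below control on every day may favour genes whose arm differences vary little, which lowers the spread that the test uses.

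From day 6 to day 9 all 4 genes rose. Aatk rose 3.11-fold (log2 change 1.64, SE 0.15, limma adjusted p = 0.000177), Sertm1 2.89-fold (1.53, SE 0.20, limma adjusted p = 0.000747), Vit 2.48-fold (1.31, SE 0.14, limma adjusted p = 0.00039) and Zfr2 1.83-fold (0.87, SE 0.19, limma adjusted p = 0.00858). The rise was seen in each of the 3 arms for each gene. Over all genes tested, 39.9% passed in this step, with 18.9% higher and 21% lower, and the median change was -0.01. Of the 1399 genes below control in both arms on every day, 29.3% rose and 15.8% fell, with a median of 0.12. The 3 day 9 libraries were all above the 3 day 6 libraries for Aatk, Sertm1 and Vit, as they were for 21.9% of all genes. For Zfr2 the groups overlapped, since the control library of day 6 (130) was above both knockdown libraries of day 9 (96 and 120). The log2 change of Zfr2 was 0.98 in the control, 0.28 under shhnrnpk and 1.35 under shlincp21. Its call was lost without the shlincp21 library of day 9 (0.70, limma adjusted p = 0.0539) and with only the knockdown arms fitted (0.82, limma adjusted p = 0.0518).

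From day 9 to day 12 none of the 4 genes passed the test by limma, with 1 of the 4, Zfr2, at an unadjusted p under 0.05. In this step 0.654% of all genes passed, and 1769 of 12541 were at an unadjusted p under 0.05. Zfr2 differed by 0.78 (SE 0.19, limma adjusted p = 0.13) and was higher on day 12 in each arm. Aatk differed by 0.29 (SE 0.15, limma adjusted p = 0.408), Vit by 0.15 (SE 0.14, limma adjusted p = 0.68) and Sertm1 by -0.05 (SE 0.20, limma adjusted p = 0.935). For none of the 4 were all 3 day 12 libraries above all 3 day 9 libraries, which held for 6.67% of genes. Without the shhnrnpk library of day 6, which enters through the arm term, Zfr2 passed (0.78, limma adjusted p = 0.0358).

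Over the whole interval, from day 6 to day 12, all 4 genes rose, where 49.3% of all genes passed, with 22.3% higher and 27% lower. The log2 change was 1.93 for Aatk (SE 0.15, limma adjusted p = 3.49e-05), 1.66 for Zfr2 (SE 0.19, limma adjusted p = 0.000267), 1.48 for Sertm1 (SE 0.20, limma adjusted p = 0.000482) and 1.46 for Vit (SE 0.14, limma adjusted p = 0.000111). All 3 day 12 libraries were above all 3 day 6 libraries for each of the 4, which held for 21.4% of genes. The rise was seen in each arm. Aatk went up 4.33-fold under shluc, 3.27-fold under shhnrnpk and 5.23-fold under shlincp21, without the added 10.

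**Figure D3:**
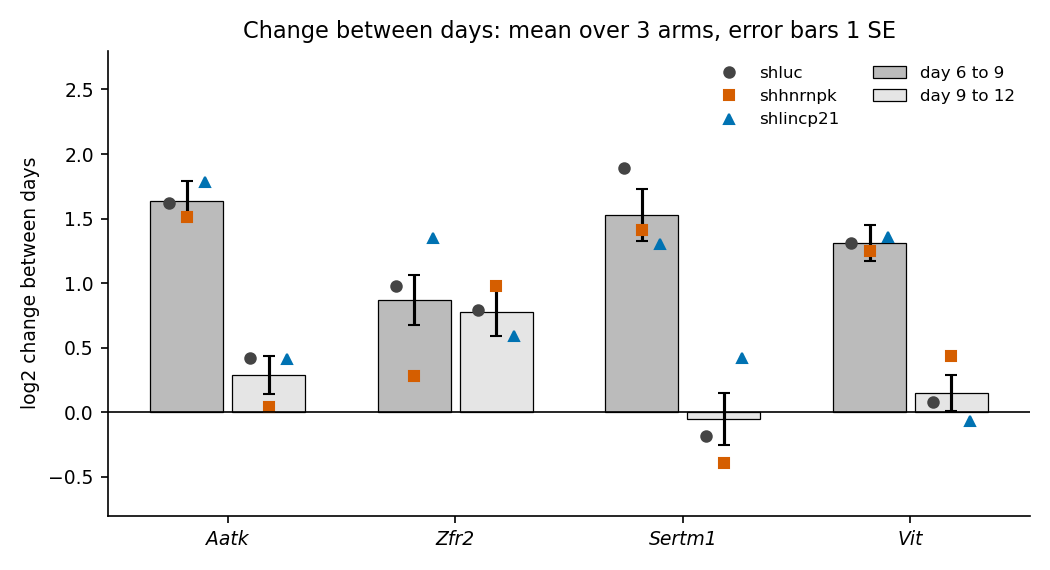
Log2 change of each gene from day 6 to day 9 (dark bars) and from day 9 to day 12 (light bars), as the mean over the 3 arms with error bars of 1 SE from limma, and the change in each arm as a point. In the first step the means lie between 0.87 and 1.64 and the arms between 0.28 and 1.89, and in the second step Sertm1 and Vit have arms on both sides of 0.

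Relatives of the 4 genes passed the test against control at about the share of all genes. Of 24 related genes in the table, 1 was higher (5.58% of all genes were) and 2 were lower (6.94% of all genes were) under shhnrnpk, where 12.5% of all genes passed in either direction. In the shlincp21 arm none of the 24 passed by limma, where 1 of all 12541 genes (0.00797%) passed. There 4 of the 24 and 1730 of the 12541 were at an unadjusted p under 0.05. Under shhnrnpk 11 of the 24 and 3685 of the 12541 were. Both comparisons share the control libraries. With 1 library per arm and day, the tests against control measure how far arm differences varied between days, not the variation between cultures. From day 6 to day 9, when all 4 genes rose, 2 of the 24 rose (Vwa1 and Crispld2) and 6 fell. Over all genes 18.9% rose and 21% fell in this step. Of the relatives, Prkra, Col6a3 and Vwa1 were below control in both arms on every day, as 11.2% of all genes tested were. Cdk5, Zfr, Adar, Coch, Crispld1 and Crispld2 were above control in both arms on every day, as 9.81% of all genes were. Sertm1 had no list of relatives.

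The list for Aatk held its kinase paralogs and the genes of its partners, with 4 of 6 in the table. None passed in either arm, and the median log2 difference was 0.14 under shhnrnpk and 0.05 under shlincp21 (0.00 and 0.02 over all genes). Lmtk2, a paralog with a role in endosomal transport, differed by 0.05 (SE 0.10, limma adjusted p = 0.792) under shhnrnpk and -0.01 (SE 0.10, limma adjusted p = 0.972) under shlincp21. Lmtk3, the other paralog, differed by 0.08 (SE 0.14, limma adjusted p = 0.76) and -0.03 (SE 0.14, limma adjusted p = 0.948). These 4 values changed sign when 1 library was left out. Lmtk3 fell from day 6 to day 9 (-0.53, SE 0.14, limma adjusted p = 0.0193), in the step in which Aatk rose. The signal of Lmtk3 was 1117, 584.5 and 497 under shluc, where the fall to day 9 was steepest. It was 889, 720 and 598.5 under shhnrnpk and 826, 637.5 and 581 under shlincp21.

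The list for Zfr2 held genes of DZF-domain and other double-stranded RNA-binding proteins, all 8 of them in the table. In the shhnrnpk arm 1 was lower and none higher, and under shlincp21 none passed. The one that fell was Prkra, the activator of the kinase PKR (-0.71, SE 0.12, limma adjusted p = 0.00865). Its signal went from 843.5, 1003.5 and 1018 under shluc to 479, 530.5 and 751.5, and was 762.5, 735 and 932.5 under shlincp21 (-0.24, limma adjusted p = 0.421). The call of Prkra was lost without the control library of day 9 (limma adjusted p = 0.0515) or the shhnrnpk library of day 9 (limma adjusted p = 0.0508). Zfr, the closest relative, differed by 0.14 (SE 0.09, limma adjusted p = 0.367) under shhnrnpk and 0.06 (SE 0.09, limma adjusted p = 0.793) under shlincp21. From day 6 to day 9 Zfr fell (-0.59, SE 0.09, limma adjusted p = 0.00192), while Zfr2 rose.

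The list for Vit held matrix and membrane proteins with von Willebrand A or LCCL domains, with 12 of 16 in the table. In the shhnrnpk arm 1 was higher and 1 lower, and under shlincp21 none passed. The collagen VI chain gene Col6a3 fell under shhnrnpk (-0.81, SE 0.16, limma adjusted p = 0.0164), from 5679, 9340 and 9277 to 4627, 4364 and 4523. It was at 4480.5, 6691 and 5458 under shlincp21 (-0.53, limma adjusted p = 0.223). The LCCL-domain receptor gene Dcbld2 rose under shhnrnpk (0.51, SE 0.10, limma adjusted p = 0.0143), from 1760, 1437 and 1698.5 to 2820.5, 1972 and 2254. The call of Dcbld2 was lost without the day 9 library of the control or of the shhnrnpk arm, and that of Col6a3 without any 1 of the day 9 and day 12 libraries of these arms (limma adjusted p up to 0.0854). Coch, which encodes cochlin, had values of 22, 32.5 and 45 under shluc, near the added 10. It differed by 0.53 (limma adjusted p = 0.0975) under shhnrnpk and 0.65 (limma adjusted p = 0.191) under shlincp21, opposite in sign to Vit. With no intensity trend Coch passed under shhnrnpk (limma adjusted p = 0.0226). Matn2, a matrilin gene, differed by -0.31 (limma adjusted p = 0.246) and 0.22 (limma adjusted p = 0.573). Vwa1 was at 35, 76 and 140 under shluc, 28, 50 and 95 under shhnrnpk and 22, 61 and 79.5 under shlincp21. It differed by -0.43 (SE 0.18, limma adjusted p = 0.166) and -0.50 (SE 0.18, limma adjusted p = 0.289), the same sign as Vit. Crispld1 and Crispld2 were above control in both arms on every day, as was Coch.

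**Figure D4:**
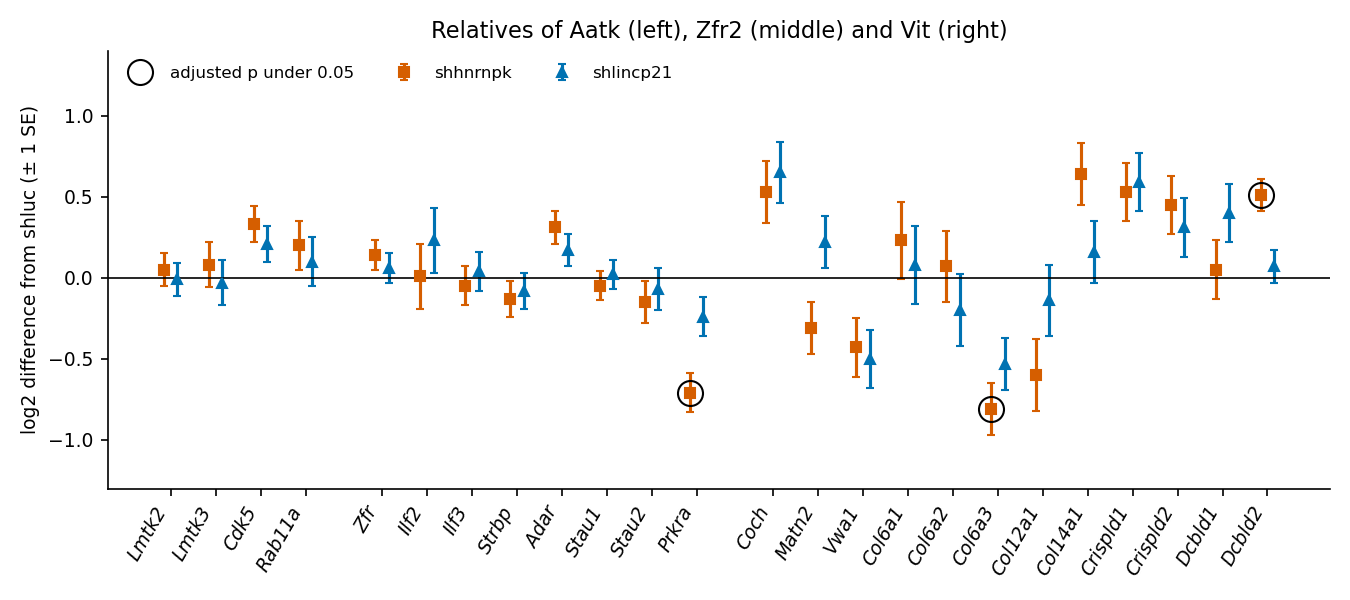
Log2 difference from control (vertical axis, bars of 1 SE from limma) in the shhnrnpk arm (squares) and the shlincp21 arm (triangles) for the relatives of Aatk, Zfr2 and Vit that are in the table. Rings mark values with an adjusted p under 0.05, which are Prkra and Col6a3 below 0 and Dcbld2 above 0, all in the shhnrnpk arm.

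The nearest genes with a row in the table were read on each side of the 4. Matk, a kinase gene of the Csk family, begins 811 bases beyond the end of Zfr2 on the same strand, and its levels were low in the same libraries. Its signal was 25.5, 136.5 and 210 under shluc, 16, 71 and 89.5 under shhnrnpk and 14.5, 69.5 and 141 under shlincp21. Each knockdown library was below the control library of its day, which held for 11.2% of all genes tested. Among these nearest genes it also held for Baiap2, Azi1 and Rfxap, described below. Matk fell under shhnrnpk (-0.82, SE 0.20, limma adjusted p = 0.0324), a call lost without any 1 of 7 libraries (limma adjusted p up to 0.141), and differed by -0.65 (SE 0.20, limma adjusted p = 0.219) under shlincp21. From day 6 to day 9 it rose (1.79, SE 0.20, limma adjusted p = 0.000421). Whether the counting kept reads beyond the end of Zfr2 apart from Matk is not stated in the labels. On its other side, 40 kb away, Dapk3 differed by 0.12 (limma adjusted p = 0.452) and 0.06 (limma adjusted p = 0.829).

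Baiap2 ends 530 bases from Aatk on the opposite strand, and it differed by -0.23 (SE 0.09, limma adjusted p = 0.129) under shhnrnpk and -0.04 (SE 0.09, limma adjusted p = 0.881) under shlincp21. Its signal lay between 2840 and 3673.5 in all libraries. On the other side of Aatk, 17.3 kb away, the centrosomal gene Azi1 fell under shhnrnpk (-0.42, SE 0.10, limma adjusted p = 0.0323), a call lost without any 1 of 8 libraries (limma adjusted p up to 0.111). Under shlincp21 Azi1 differed by -0.15 (SE 0.10, limma adjusted p = 0.541). Rfxap, a regulator of MHC class II genes 89.3 kb from Sertm1, fell under shhnrnpk (-0.40, SE 0.11, limma adjusted p = 0.0459). That call was lost without any 1 of the 9 libraries (limma adjusted p up to 0.157) and, with no intensity trend, at 0.056. Under shlincp21 Rfxap differed by -0.16 (SE 0.11, limma adjusted p = 0.537). The flanking genes Spg20, Fez2 and Strn did not pass in either arm, and each lay 22.5 kb or more from Sertm1 or Vit.

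The genes with the profiles most like these were named by Pearson correlation of log2 values over the 9 libraries, among 11782 named protein-coding genes. The libraries are shared by all genes and differ by day and arm, so these values describe the profiles and carry no p. Closest to Aatk were Usp28 (r = 0.986), Zfp184 (r = 0.985) and the DNA methyltransferase gene Dnmt3a (r = 0.984). Usp28, a deubiquitinase gene, went from 1324, 3246 and 3724.5 under shluc to 742.5, 1847.5 and 1790 and to 855, 2008 and 2785.5 under shhnrnpk and shlincp21. Zfr2 was closest to the glutathione transferase gene Gstm1 (r = 0.987), Vps39 (r = 0.977) and Per3 (r = 0.970). Sertm1 was closest to the Fc receptor gene Fcgr2b (r = 0.987), to Aatk (r = 0.979) and to the proton pump gene Atp12a (r = 0.978). For Vit these were Gramd1c (r = 0.980), the cartilage gene Lect1 (r = 0.979) and Paics (r = 0.970).

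With each day's mean subtracted, so that only the arm profile counts, Aatk was closest to Trim44 (r = 0.992), Csdc2 (r = 0.990) and Cdc25b (r = 0.987), and Zfr2 to Mllt3 (r = 0.981), Arsk (r = 0.976) and Zbtb20 (r = 0.970). Sertm1 was closest to Matk (r = 0.990), the gene next to Zfr2, and to Gucy1b3 and Apbb1 (r = 0.984 for each). Vit was closest to Rasa4 (r = 0.989), Gramd1c (r = 0.965) and Tmem67 (r = 0.962). Among the 4 genes themselves, r ranged from 0.87 (Zfr2 and Sertm1) to 0.98 (Aatk and Sertm1) over the 9 libraries, which the choice of genes favours. By rank correlation, 0 or 1 of the 3 genes named for each profile stayed among the top 3, so the order among close profiles depends on the measure.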

How the data were processed

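Mouse RNA was sequenced from 9 libraries, 1 for each of 3 hairpin arms on days 6, 9 and 12, each merged from replicates per the labels. The authors deposited 1 table of normalized signal for 12550 genes. The submitters' processing notes name RSEM 1.2.12, Bowtie 1.0.1 and mm10 without their roles, and how values were scaled is not stated there. In the deposited file each signal value is a multiple of 0.5. The highest value (118715) is the same in the 9 columns, whose totals differ by 0.025%. It is not a count, so count tests were not used and the depth of each library is unknown. Scaling columns to 1 shared set of values removes differences in overall level between libraries. The value columns of no library numbered 0.

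With 10 added, log2 values of the 12541 genes with a mean of at least 20 were fitted in limma 3.58.1 (R 4.3.3), with terms for arm and day, an intensity trend and Benjamini-Hochberg adjustment at 0.05 (4 residual degrees of freedom, 8.46 in total). The fit was tested on simulated data. Coordinates came from GENCODE M21, which held 12470 of the gene identifiers. Alternatives were pseudocounts of 1 and 50, no filter, median ratio scaling, no intensity trend, the knockdown arms alone and each library left out.

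The 4 genes, and the lists of related genes and markers, were chosen with earlier results of these data known. Genes named beside them are those called in a list and the closest paralogs, the nearest gene of the table on each side, the 3 with the highest correlation per gene, and the neighbours in rank under the rule of choice. Related genes below, or above, control in both arms on every day are named as well. Clone-named entries were ranked but not named. A further marker list is not reported here.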

Additional observations from a re-analysis of the deposited data

Results flagged for a closer look

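From day 9 to day 12, 2 of the 4 genes moved in opposite directions in different arms. Sertm1 changed by -0.18 on the log2 scale under shluc and by -0.39 under shhnrnpk, but by 0.42 under shlincp21. Vit changed by 0.08 under shluc and by 0.44 under shhnrnpk, but by -0.07 under shlincp21. Each value compares 1 library with 1 library, and the difference between the arms was not tested. The control values of Sertm1 on these days were 365 and 320, and the shlincp21 values of Vit 153.5 and 146.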

How the results depend on the processing

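With every alternative, the rises of the 4 genes from day 6 to day 12 stayed past the threshold, as did those from day 6 to day 9 except that of Zfr2, given above, so that leaving out 1 library gave 3 to 4 genes called from day 6 to 9, 0 to 1 from day 9 to 12 and 4 to 4 from day 6 to 12. Over all genes, 5008 were called from day 6 to 9 (3062 to 5605 with 1 library left out), 6181 from day 6 to 12 (4321 to 6225), 1570 under shhnrnpk (559 to 2045) and 1 under shlincp21 (0 to 92). From day 9 to 12 there were 82 (1 to 421), 50 with a pseudocount of 1 and 2 with only the knockdown arms. The shlincp21 arm gave 0 by limma with a pseudocount of 50, against 1730 genes at an unadjusted p under 0.05 in the analysis reported, and 13 with no intensity trend. The 3 lowest counts from day 6 to 9 (3062, 3185 and 3113) came without the control, shhnrnpk and shlincp21 library of day 9, and those from day 9 to 12 were 1 without any of these or without the shlincp21 library of day 12. The cause of these shifts was not tested. The differences of the 4 genes from control kept their sign throughout, from -0.57 (Vit) to -1.54 (Aatk), and a pseudocount of 50 moved those of Aatk, Zfr2 and Vit under shlincp21 towards 0 by more than their SD. Median ratio scaling kept all 4 genes below control in both arms on every day. Small differences that turned sign with 1 library left out were those of Sertm1 from day 9 to 12 (-0.23 to 0.15, and 0.01 with only the knockdown arms), Lmtk2 (-0.04 to 0.13 under shhnrnpk and -0.10 to 0.07 under shlincp21), Lmtk3 (-0.03 to 0.28 and -0.14 to 0.17), Spg20 (-0.01 to 0.20 and -0.05 to 0.09), and, under shlincp21, Dapk3 (-0.01 to 0.11) and Dcbld2 (-0.01 to 0.14). With depth unknown, low values such as those of Coch and Matk carry a precision that cannot be given.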
